A study of Mus musculus with 8 samples.

Results

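Costimulatory receptors give an activated T cell the second signal that accompanies recognition of antigen, and the 8 mouse genes described here encode the members chosen by name from the 32285 genes measured: Tnfrsf9, Tnfrsf4, Tnfrsf18, Cd27, Cd28, Icos, Cd226 and Crtam. All 8 were found among the measured genes. They were read in OT-I T cells, CD8+ cells whose transgenic receptor recognises ovalbumin, taken from Cas9 knock-in mice, transduced with a lentiviral library of guides against metabolic genes and selected by the CD90.1 marker. The cells were injected into mice with orthotopic KPC_OVA tumours, a pancreatic ductal adenocarcinoma line that expresses chicken ovalbumin, and were sorted from the primary tumour 7 days later. Mice received antibody against PD-1 (3 libraries) or IgG control antibody (1 library), and every group, IgG included, held Cas9, the OT-I receptor and the guide library, so the reference within a library was the cells with a nontargeting guide (sgNT). Single-cell transcripts and guides were read from the same cells by CROP-seq, and 23059 cells with exactly 1 guide were kept, 2535, 2597 and 6432 in anti-PD-1 libraries 1, 2 and 3 and 11495 in the IgG library. The labels do not say how many mice a library holds, so the spread between libraries may be technical in part, and the IgG antibody group has no spread of its own.

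Tnfrsf9, Tnfrsf4, Tnfrsf18 and Cd27 belong to the tumour necrosis factor receptor superfamily. Tnfrsf9 encodes 4-1BB and Tnfrsf4 encodes OX40, which appear after activation and recruit TRAF adaptors that lead to NF-kB signalling. Tnfrsf18 encodes GITR, and Cd27 encodes the receptor for CD70, which naive T cells already carry. Cd28 and Icos belong to the immunoglobulin superfamily: CD28 binds CD80 and CD86 on antigen-presenting cells, ICOS binds ICOS ligand, and both engage phosphoinositide 3-kinase. Cd226 encodes DNAM-1, which binds PVR and nectin-2 in competition with the inhibitory receptor TIGIT, and Crtam encodes a class-I-restricted T-cell-associated molecule that binds CADM1.

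Several of the genes are neighbours in the genome (build GRCm38). Tnfrsf4 (ENSMUSG00000029075, chr4:156013843-156016612, plus strand) and Tnfrsf18 (ENSMUSG00000041954, chr4:156026164-156028895, plus strand) lie 9551 bases apart with 0 protein-coding genes between them. Tnfrsf9 (ENSMUSG00000028965, chr4:150914562-150946102, plus strand) is on the same chromosome, with 83 protein-coding genes between it and Tnfrsf4. Cd28 (ENSMUSG00000026012, chr1:60716800-60773359) and Icos (ENSMUSG00000026009, chr1:60977927-61000320) flank Ctla4, the gene of the inhibitory receptor that competes with CD28. Cd27 (ENSMUSG00000030336) lies at chr6:125232622-125237010 on the minus strand and overlaps Vamp1 on the other strand. Crtam (ENSMUSG00000032021) lies at chr9:40969691-41004628 on the minus strand. Cd226 (ENSMUSG00000034028) has no neighbour among the 8.

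The start-site windows of 3 genes on chromosome 4 are shown. Windows were at hand only for these genes and for Cd27. The 3 genes were found together in the same cells more often than their separate frequencies gave, as described below. Other combinations of the receptors were too, and no link between windows and co-detection was tested. Each window runs from 250 bases before to 50 bases after a RefSeq transcript start (GRCm38.p6, plus strand, printed 5′ to 3′), and capitals mark matches on either strand to the kappaB consensus, to the AP-1 site (TGACTCA or TGAGTCA) or to the NFAT core (TGGAAA, printed as TTTCCA where it lies on the other strand). Tnfrsf9 has a pair of annotated windows, of which the one shown is the downstream, chr4:150927749-150928048. The Tnfrsf4 window is chr4:156013445-156013744 and the Tnfrsf18 window is chr4:156026072-156026371.
Tnfrsf9: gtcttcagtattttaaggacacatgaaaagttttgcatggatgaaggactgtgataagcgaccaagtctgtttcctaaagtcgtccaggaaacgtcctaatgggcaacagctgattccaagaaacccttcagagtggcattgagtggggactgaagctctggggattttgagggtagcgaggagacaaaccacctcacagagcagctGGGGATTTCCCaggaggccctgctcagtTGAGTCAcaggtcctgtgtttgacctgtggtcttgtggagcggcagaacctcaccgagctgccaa
Tnfrsf4: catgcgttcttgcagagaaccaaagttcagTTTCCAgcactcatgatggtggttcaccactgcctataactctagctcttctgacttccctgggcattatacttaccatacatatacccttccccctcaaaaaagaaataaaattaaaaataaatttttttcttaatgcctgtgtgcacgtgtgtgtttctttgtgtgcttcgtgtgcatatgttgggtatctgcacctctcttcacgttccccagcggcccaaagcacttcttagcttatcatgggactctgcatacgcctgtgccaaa
Tnfrsf18: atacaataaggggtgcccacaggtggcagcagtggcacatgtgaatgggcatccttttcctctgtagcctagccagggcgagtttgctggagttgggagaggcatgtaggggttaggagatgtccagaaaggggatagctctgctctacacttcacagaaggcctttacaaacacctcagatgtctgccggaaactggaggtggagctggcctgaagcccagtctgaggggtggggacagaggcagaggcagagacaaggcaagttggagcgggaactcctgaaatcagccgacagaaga

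The Tnfrsf9 window held 2 overlapping kappaB matches, at bases 208 to 218, and 1 AP-1 match at bases 236 to 242. Of 32851 windows of 300 bases, 8.46% held a kappaB match, 5.20% an AP-1 match and 21.4% an NFAT core. The Tnfrsf4 window and the upstream Tnfrsf9 window each held 1 NFAT core, and the windows of Tnfrsf18 and Cd27 held none of these 3 letter patterns. These are matches of letters and not measured binding.

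The libraries differed in depth, with median UMIs per kept cell of 16829, 16325 and 12084 in anti-PD-1 libraries 1 to 3 and 6329 in the IgG library, so shares of cells were compared after every cell was thinned to 2000 UMIs, which left out 163 shallower IgG cells. Every kept cell held a UMI of the T cell markers. Levels below are UMIs scaled to the total of the library or class (CPM), and on that scale Cd4 and Foxp3 together summed to between 0.0623 and 1.24, while 87 kept cells held 10 or more UMIs of another cell type's markers. Guide composition grouped anti-PD-1 library 1 with library 2 (chi-square per degree of freedom 1.56) and anti-PD-1 library 3 with the IgG library (3.05), against 5.04 to 6.27 for the other combinations. The sample titles give libraries 1 and 2 a shared stem and the others a stem each, and the study's methods mention batches without assigning these libraries to them. No label names a batch, so these are called library pairs below. From 3 to 18 kept cell barcodes were shared by any 2 libraries.

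All 8 receptors were measured in all 4 libraries, and the libraries differed most in Icos and Cd28. Tnfrsf9 summed to 533, 557 and 577 CPM in anti-PD-1 libraries 1 to 3 and to 449 CPM in the IgG library. All 3 anti-PD-1 values lay above the IgG value. Tnfrsf4 gave 133, 130 and 138 CPM under anti-PD-1 and 155 CPM under IgG, and Tnfrsf18 gave 207, 209 and 253 CPM against 271 CPM. For both genes the IgG library was the highest of the 4. Cd27 was the most even, at 224, 216 and 219 CPM under anti-PD-1 and 215 CPM under IgG.

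Icos gave 165, 147 and 94.3 CPM in anti-PD-1 libraries 1 to 3 and 79.9 CPM in the IgG library, and Cd28 gave 246, 223 and 130 CPM against 140 CPM. Both genes were high in libraries 1 and 2 and low in library 3 and IgG. In Cd28 the value of anti-PD-1 library 3 lay below that of IgG. Cd226 gave 118, 110 and 135 CPM against 110 CPM, and Crtam gave 113, 131 and 100 CPM against 117 CPM. Neither of these last genes separated the groups.

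**Figure D1:**
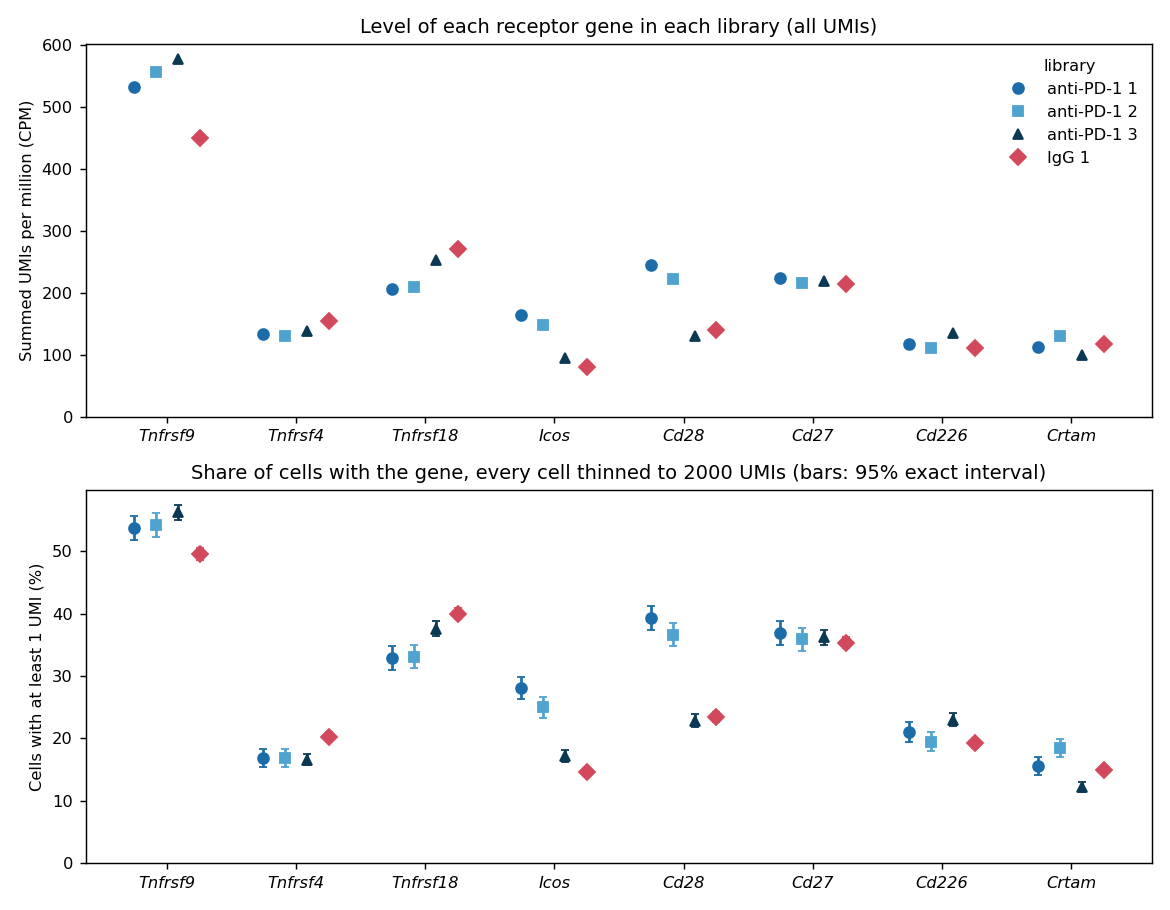
Upper plot: summed UMIs scaled to the library total (CPM, y axis) of each receptor gene in each of the 4 libraries at their own depth. Lower plot: share of cells with at least 1 UMI (y axis, %) after thinning every cell to 2000 UMIs, with 95% exact binomial intervals that cover counting error only. Icos and Cd28 are high in anti-PD-1 libraries 1 and 2, while Tnfrsf9 is lower in the IgG library than in the 3 anti-PD-1 libraries.

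At equal depth the shares of cells with a UMI again set Icos and Cd28 apart by library. Tnfrsf9 was found in 53.8%, 54.2% and 56.3% of anti-PD-1 cells and in 49.6% of IgG cells, with a 95% exact binomial interval of 48.7% to 50.5% for IgG. At the cells' own depth the shares were 88.4%, 88.6%, 87.6% and 76.0%. Icos was found in 28.1%, 25.0% and 17.2% of cells in anti-PD-1 libraries 1 to 3 and in 14.6% of IgG cells after thinning, and Cd28 in 39.3%, 36.6%, 22.8% and 23.4%. For Cd28 the intervals of anti-PD-1 library 3 (21.8% to 23.9%) and of IgG (22.6% to 24.2%) overlapped. Tnfrsf18 was found in 32.9% to 37.5% of anti-PD-1 cells and 39.98% of IgG cells, Tnfrsf4 in 16.5% to 16.8% and 20.3%, and Cd27 in 35.9% to 36.9% and 35.4%. The IgG share was below all 3 anti-PD-1 shares for 4 of 8 genes after thinning (Tnfrsf9, Icos, Cd27 and Cd226) and for 8 of 8 at the cells' own depth. For comparison, Cd4, which CD8+ T cells lack, had a UMI in at most 0.0176% of the thinned cells of any library and Foxp3 in at most 0.203%. Only 4 barcodes lacked all T cell markers (median 1782 UMIs), and 0 of these held a UMI of any receptor, which allows a share of up to 60.2%. All intervals cover counting error only.

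Treatment was tested on counts summed per library, 3 anti-PD-1 libraries against 1 IgG library, in a fit over 13810 genes, and the lone IgG library was taken to have the same spread as the others. No receptor passed. By edgeR's quasi-likelihood test 0 of 8 receptors and 0% of all genes (0 of 13810) had an adjusted p under 0.05, and 1 receptor and 282 genes had an unadjusted p under that value. DESeq2 called 0 of 8 receptors and 5 genes (0.0362%). The log2 difference, anti-PD-1 over IgG, was 0.78 ± 0.33 (SE) for Icos, 0.53 ± 0.37 for Cd28 and 0.32 ± 0.12 for Tnfrsf9. It was -0.27 ± 0.16 for Tnfrsf18 and -0.20 ± 0.12 for Tnfrsf4, and 0.05 ± 0.11 for Cd27, 0.14 ± 0.15 for Cd226 and -0.01 ± 0.19 for Crtam. Adjusted p ran from 0.987 to 0.999 over the 8 genes, and the median log2 difference was 0.10 over the receptors and 0.01 over all genes tested.

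Icos, Cd28 and Tnfrsf18 were among the 29% of genes that differed between the library pairs. The IgG library lies in only 1 of the pairs, so treatment is mixed into this difference. In a contrast added after the data were seen, anti-PD-1 libraries 1 and 2 against anti-PD-1 library 3 and IgG, 3 of 8 receptors and 29% of genes (3850 of 13275, 14.5% higher and 14.5% lower) had an adjusted p under 0.05. Icos was higher in libraries 1 and 2 by 0.86 ± 0.09 on the log2 scale (adjusted p = 2.31e-05) and Cd28 by 0.82 ± 0.08 (adjusted p = 1.23e-05), while Tnfrsf18 fell by 0.31 ± 0.08 (adjusted p = 0.0113). Tnfrsf9 differed by 0.11 ± 0.11 and Cd27 by 0.05 ± 0.07. Within the pair that holds both treatments, anti-PD-1 library 3 over IgG gave log2 ratios of 0.36 for Tnfrsf9, 0.29 for Cd226, 0.24 for Icos, -0.09 for Tnfrsf18, -0.10 for Cd28 and -0.22 for Crtam. With the library pair as a term in the treatment fit, 0 of 8 receptors and 2.05% of genes passed, Tnfrsf9 stood at 0.36 ± 0.14, Icos at 0.24 ± 0.13, Cd28 at -0.10 ± 0.13 and Tnfrsf18 at -0.10 ± 0.13. Without anti-PD-1 library 3, 3 of 8 receptors passed against 24.9% of all genes, namely Icos (0.98), Cd28 (0.77) and Tnfrsf18 (-0.36).

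**Figure D2:**
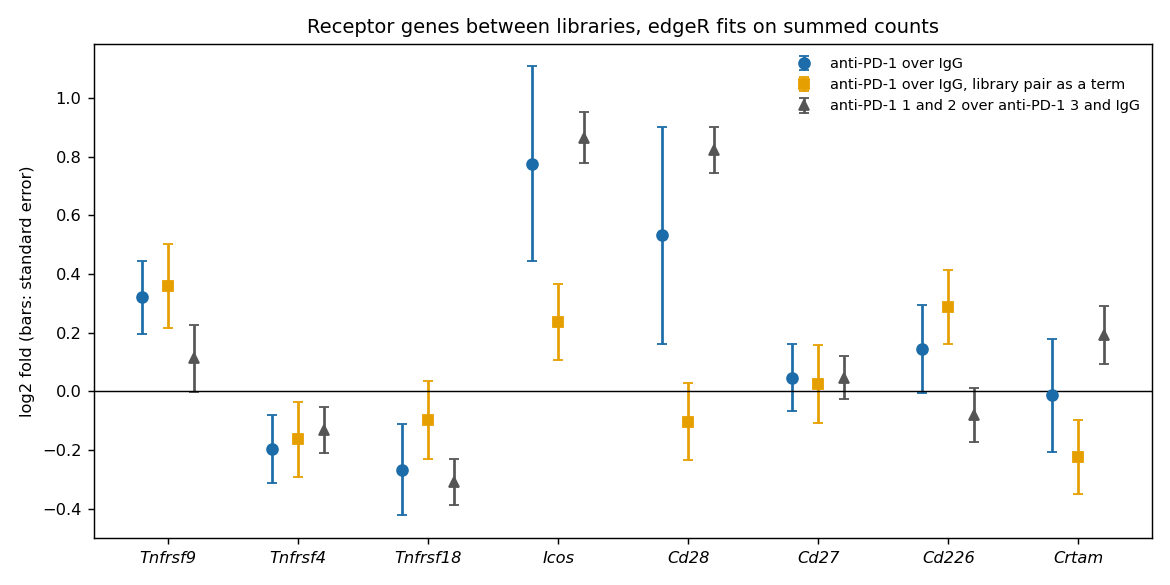
Log2 fold (y axis) of each receptor gene from edgeR fits on counts summed per library, with standard errors as bars. Circles give anti-PD-1 over IgG, squares the same with the library pair as a term, and triangles anti-PD-1 libraries 1 and 2 over anti-PD-1 library 3 and IgG. Icos and Cd28 stand at 0.86 and 0.82 in the library pair contrast and at 0.24 and -0.10 once the pair is a term, while Tnfrsf9 stands at 0.32 for treatment and 0.36 with the pair as a term.

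To read the receptors across cell states, each cell was scored for 9 marker lists that hold none of the 8 genes, and took the list with its highest standardised score where that reached 1. The precursor list held Tcf7, Slamf6, Id3, Xcl1 and Lef1, the memory list Klf2, S1pr1 and Il7r among its genes, the exhausted list Pdcd1, Havcr2, Lag3, Entpd1 and Tox, the cytokine list Ifng, Tnf, Ccl3 and Ccl4, and the antigen response list the Nr4a and Egr genes that follow receptor triggering. A granzyme list, an interferon list and lists for the G1/S and G2/M phases completed the set. These classes are ranges of a score and not cell types. Their sizes ran from 785 cells (interferon) to 2949 cells (G1/S), 6526 of 23059 cells reached no list, and 936 of those lay within 0.1 of the limit. Each class held a similar share of every library, for example 5.72% to 7.12% for the precursor class and 8.74% to 9.58% for the exhausted class. Scores were standardised within each library, which by itself holds these shares alike. The shares therefore cannot show whether treatment moved cells between states. Median UMIs differed between classes, from 4545 to 12217 over the libraries in the interferon class to 9374.5 to 25595 in the G2/M class.

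Counts were summed per class and library, and each class was set against the mean of the other classes, with library as a term, over 10640 genes. A gene was called where its adjusted p was under 0.05 and its log2 difference at least 0.5 either way. Of the 80 combinations of receptor and class 22 were called (27.5%), 9 higher and 13 lower, where 9.44% of all combinations of gene and class were called, 5% higher and 4.43% lower. All 22 had the same sign in each of the 4 libraries taken alone, but the calls were made from these same libraries, which favours such agreement. Crtam had 8 of the 22 calls, Tnfrsf9 and Tnfrsf4 had 4 each, Icos had 2, and Tnfrsf18, Cd28, Cd27 and Cd226 had 1 each. No receptor was called in the interferon class, where 4.3% of genes were, or among the cells of no class, where 3.85% were.

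**Figure D3:**
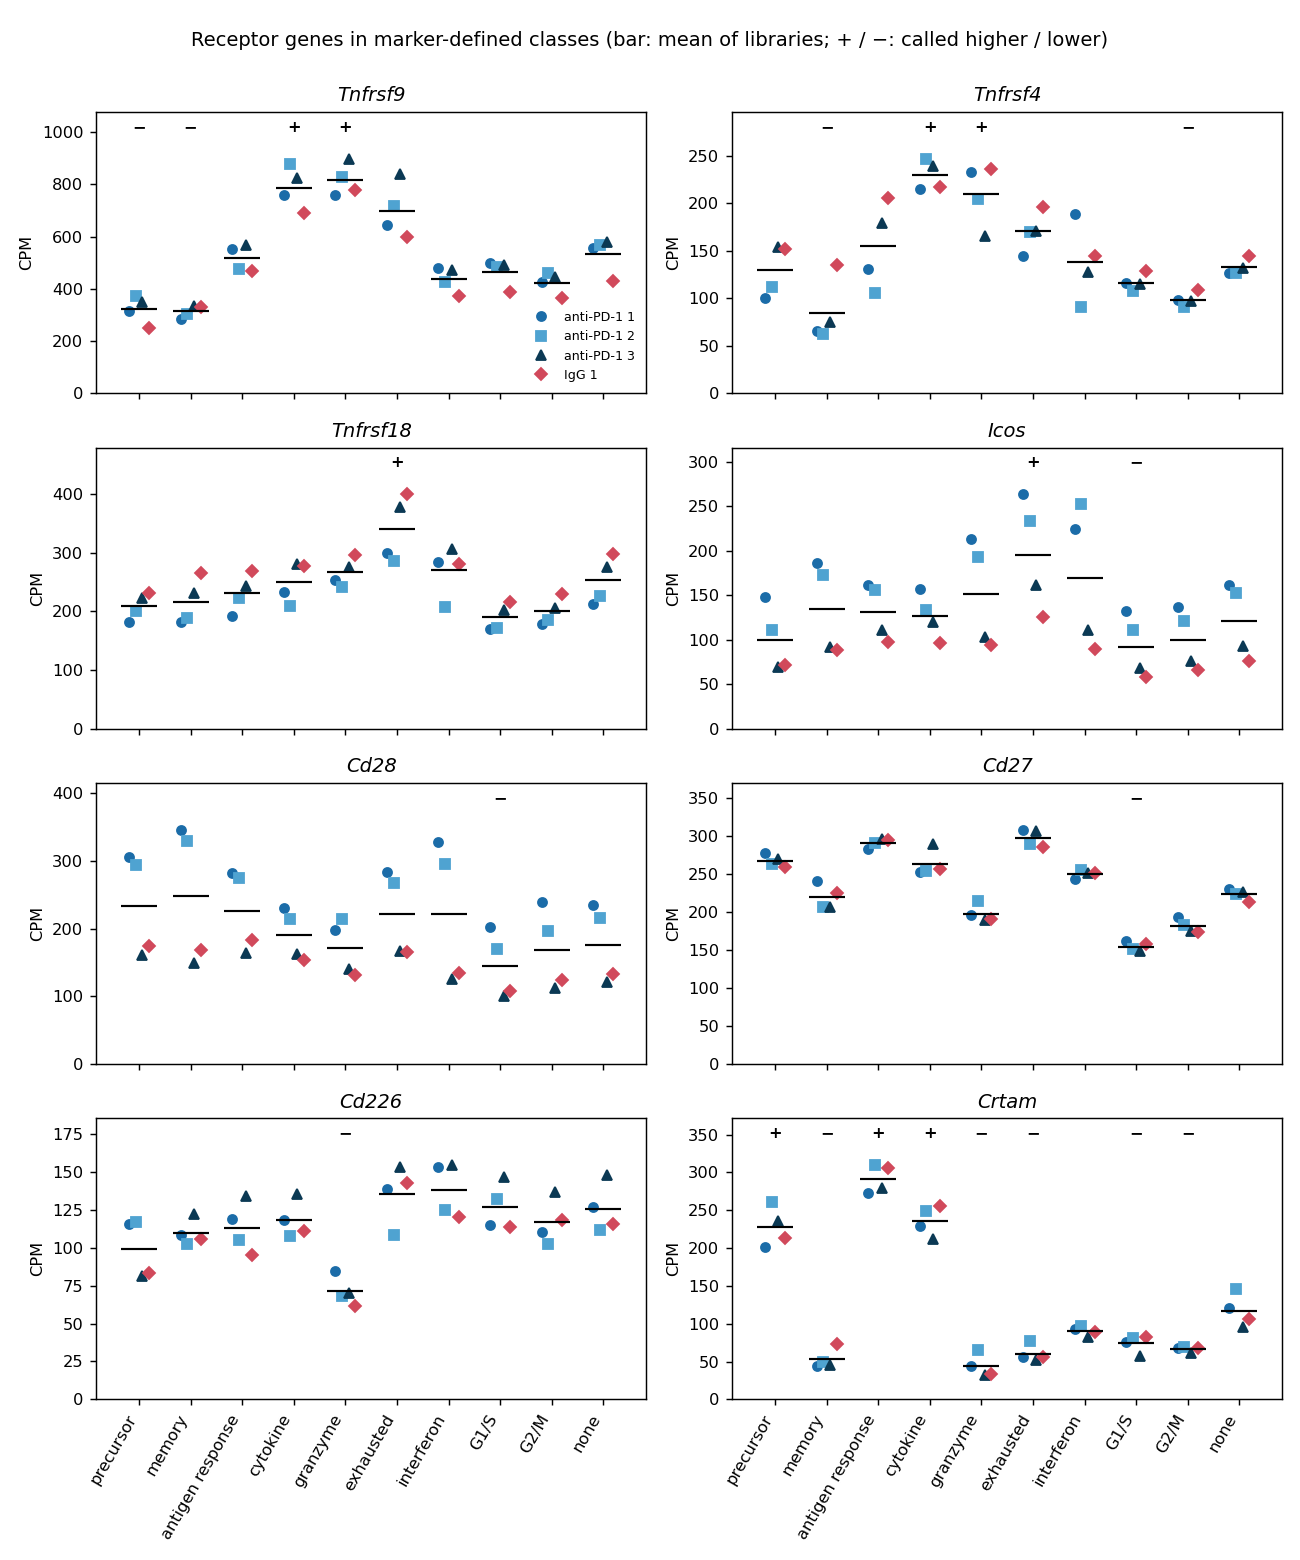
Level (CPM, y axis) of each receptor gene in each marker-defined class (x axis), with 1 point per library, a bar at the mean of the 4 libraries, and + or − above classes called higher or lower than the mean of the others. Crtam runs from under 70 CPM in the granzyme class to over 270 CPM in the antigen response class, and Tnfrsf9 and Tnfrsf4 are both high in the cytokine and granzyme classes and low in the memory class.

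Tnfrsf9 was highest in the granzyme and cytokine classes and lowest in the memory and precursor classes. In the granzyme class it gave 759, 829 and 897 CPM in anti-PD-1 libraries 1 to 3 and 776 CPM in IgG, and in the cytokine class 758, 876, 825 and 688 CPM. In the memory class it gave 285, 305, 336 and 332 CPM and in the precursor class 316, 371, 349 and 249 CPM. No library of the memory or precursor class reached the lowest library of the granzyme or cytokine class. The log2 differences from the other classes were 0.84 ± 0.05 (granzyme, adjusted p = 7.42e-18) and 0.79 ± 0.05 (cytokine, adjusted p = 3.24e-17), against -0.79 ± 0.06 (memory, adjusted p = 2.76e-14) and -0.74 ± 0.06 (precursor, adjusted p = 1.64e-13). In the exhausted class the difference was 0.45 ± 0.05, short of the fold set for a call.

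Tnfrsf4 followed Tnfrsf9 in 3 of these 4 classes. It gave 215, 247 and 239 CPM in the cytokine class of anti-PD-1 libraries 1 to 3 and 218 CPM in that of IgG, and 232, 204, 166 and 236 CPM in the granzyme class. In the memory class it gave 65.8, 62.6, 74.7 and 135 CPM. The IgG library stood apart from the 3 anti-PD-1 libraries in the memory class and still lay below every cytokine and granzyme value. The log2 differences were 0.88 ± 0.09 in the cytokine class (adjusted p = 1.19e-10), 0.69 ± 0.10 in the granzyme class (adjusted p = 3.10e-07) and -0.83 ± 0.12 in the memory class (adjusted p = 4.34e-07). Unlike Tnfrsf9, it was not called in the precursor class (-0.11 ± 0.11) and was called lower in G2/M (-0.58 ± 0.10, adjusted p = 3.71e-06). The 2 genes were not tested against each other. From cells thinned to 2000 UMIs the memory difference was -0.49 and not called, and from the nontargeting cells alone neither the memory (-0.74, adjusted p = 0.233) nor the granzyme difference (0.52, adjusted p = 0.298) was called.

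Tnfrsf18 and Icos were called higher in the exhausted class alone. Tnfrsf18 gave 299, 286 and 379 CPM there in anti-PD-1 libraries 1 to 3 and 399 CPM in IgG, 0.50 ± 0.04 above the other classes on the log2 scale (adjusted p = 4.48e-13), which is at the limit of the fold set for a call and fell short of it in thinned cells (0.39) and in nontargeting cells (0.46). Icos gave 264, 233, 161 and 125 CPM, and each library's value was above the same library's cytokine, granzyme and memory values. In anti-PD-1 library 2 the interferon class was higher still, at 252 CPM. Its log2 difference was 0.62 ± 0.06 (adjusted p = 8.53e-11). In the G1/S class Icos was lower, at 132, 110, 68.0 and 57.9 CPM (-0.57 ± 0.06, adjusted p = 5.37e-10), a call that thinning ended (-0.48). Icos differed by 0.37 ± 0.08 in the interferon class, short of a call.

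Cd27 and Cd28 were both called lower in the G1/S class and in no other. Cd27 gave 161, 150.5 and 148 CPM in G1/S of anti-PD-1 libraries 1 to 3 and 158 CPM in that of IgG, and 282, 290, 296 and 295 CPM in the antigen response class. The log2 difference was -0.66 ± 0.04 in G1/S (adjusted p = 1.26e-19) and 0.42 ± 0.03 in the antigen response class, which is short of a call. Cd28 gave 202, 170, 100 and 108 CPM in G1/S, with a log2 difference of -0.51 ± 0.06 (adjusted p = 1.38e-09). That call lay at the limit of the fold and was lost in thinned cells (-0.46), without cells of other types (-0.50) and without anti-PD-1 library 3 (-0.49). Its highest log2 differences were 0.27 to 0.28, in the memory, antigen response and precursor classes, with none called. In all 10 classes the values of libraries 1 and 2 lay above those of library 3 and IgG for Cd28, and likewise for Icos.

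Cd226 was called in 1 class. In the granzyme class it gave 84.7, 68.3 and 70.1 CPM in anti-PD-1 libraries 1 to 3 and 61.7 CPM in IgG, and its log2 difference was -0.70 ± 0.08 (adjusted p = 3.89e-09). In the nontargeting cells alone it was -0.56 and not called (adjusted p = 0.163). Over the other 9 classes its log2 differences ran from -0.25 to 0.29.

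Crtam had the widest range of the 8 genes, 3.11 on the log2 scale from its lowest to its highest class, against 0.80 to 1.71 for the others. In the antigen response class it gave 273, 310 and 280 CPM in anti-PD-1 libraries 1 to 3 and 305 CPM in IgG, in the cytokine class 229, 249, 212 and 256 CPM, and in the precursor class 201, 261, 236 and 213 CPM. In the granzyme class it gave 43.8, 65.8, 31.5 and 33.0 CPM. The antigen response values did not overlap those of any other class. The log2 differences were 1.74 ± 0.07 (antigen response, adjusted p = 1.36e-23), 1.44 ± 0.07 (cytokine, adjusted p = 6.60e-21) and 1.31 ± 0.07 (precursor, adjusted p = 4.57e-18). The gene was lower in the granzyme (-1.37 ± 0.10), memory (-1.02 ± 0.10), exhausted (-0.91 ± 0.09), G2/M (-0.68 ± 0.08) and G1/S (-0.52 ± 0.08) classes, with adjusted p between 2.39e-14 and 2.39e-07. The G1/S call was lost without anti-PD-1 library 3 (-0.44) and the memory call in nontargeting cells alone (-1.02, adjusted p = 0.0622).

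Read by class, 3 of 8 receptors were higher in the cytokine class (Crtam, Tnfrsf4 and Tnfrsf9), where 6.16% of genes were, and none was lower (6.58% of genes). In the exhausted class 2 were higher (Icos and Tnfrsf18) against 4.05% of genes, and Crtam was lower against 6.98%. In the granzyme class 2 were higher (Tnfrsf9 and Tnfrsf4) and 2 lower (Crtam and Cd226), against 4.77% and 3.23% of genes. In the memory class 3 were lower (Tnfrsf9, Tnfrsf4 and Crtam) against 3.77% and none higher against 5.86%, and in G1/S 4 were lower (Crtam, Cd27, Cd28 and Icos) against 6.97% and none higher against 9.29%. The median log2 difference over the 8 receptors was -0.45 in G1/S and -0.35 in G2/M, where the median over all genes was -0.03 and -0.04, and 0.30 in the exhausted class, where it was -0.01. In the antigen response class Crtam was higher (3.26% of genes) and none lower (1.6%), in the precursor class Crtam was higher (5%) and Tnfrsf9 lower (3.85%), and in G2/M 2 were lower (6.78%) and none higher (8.08%).

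In the memory class anti-PD-1 libraries 1 and 2 lay below IgG for Tnfrsf9, and in the granzyme class library 1 did. In all 10 classes anti-PD-1 library 3 exceeded IgG for Tnfrsf9, by 0.02 to 0.49 on the log2 scale, and in the remaining 8 of 10 classes all 3 anti-PD-1 libraries did. For Icos all 3 anti-PD-1 libraries were above IgG in 9 of 10 classes. For Tnfrsf18 all 3 were below IgG in 8 of 10 classes, and for Tnfrsf4 in 7. For Cd28 the log2 ratio of anti-PD-1 library 3 to IgG ran from -0.17 to 0.09. These classes are cells of the same libraries and are no further replicates.

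Over the 40 sums of a class and a library, each centred on its library, Tnfrsf9 and Tnfrsf4 had the highest Pearson correlation of any 2 receptors (r = 0.85 over 40 sums that share libraries and markers). Tnfrsf18 went with Icos (r = 0.80) and Cd28 with Cd27 (r = 0.74). The genes of most similar pattern outside the receptors and the class markers, among 10588 genes, were Aldoa for Tnfrsf9 (r = 0.93), Prelid2 and Irf8 for Tnfrsf4 (both r = 0.87 to 0.88), Stat3 for Tnfrsf18 (r = 0.90), Cd53 for Icos (r = 0.88) and Zfp36 for Cd28 (r = 0.87). For Cd27 they were 4930417O13Rik and Jarid2 (both r = 0.92), for Crtam Cd160 (r = 0.89), and for Cd226 Cotl1 (r = 0.73). Cd226 had the least similar partner of the 8. Aldoa encodes a glycolytic enzyme, Irf8 and Stat3 encode transcription factors, Zfp36 encodes an RNA-binding protein that destabilises transcripts, and Cd160 encodes a receptor of cytotoxic lymphocytes.

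Co-detection in single cells was measured at 2000 UMIs per cell as the log2 odds ratio that a cell holds both genes, within each library, where 0 is what independent detection gives. The highest means belonged to Tnfrsf9 with Tnfrsf4 and to Tnfrsf4 with Tnfrsf18, genes whose start windows are shown above. Tnfrsf9 and Tnfrsf4 gave 1.30, 1.05, 0.94 and 0.84 in anti-PD-1 libraries 1 to 3 and IgG. In the IgG library 12.4% of cells held both, against 10.0% expected from the separate shares. Tnfrsf4 and Tnfrsf18 gave 0.76, 0.58, 0.99 and 0.79, and Tnfrsf9 and Tnfrsf18 gave 0.42, 0.61, 0.63 and 0.48. Every one of these values was above 0. The mean over libraries for Tnfrsf9 with Tnfrsf18 (0.54) lay below that for Tnfrsf9 with Crtam (0.55).

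Crtam had log2 odds ratios of both signs. With Tnfrsf9 its log2 odds ratio averaged 0.55 ± 0.21 (SD over 4 libraries), with Tnfrsf4 0.37 ± 0.15 and with Cd27 0.37 ± 0.14. With Icos it gave -0.53, -0.60 and -0.46 in anti-PD-1 libraries 1 to 3 and -0.48 in IgG, the lowest mean of all 28 combinations. With Cd226 it averaged -0.21 ± 0.12 and with Tnfrsf18 -0.18 ± 0.07, but at 4000 UMIs these were -0.11 ± 0.06 and -0.10 ± 0.15, and the value with Tnfrsf18 was above 0 in anti-PD-1 libraries 1 and 2. Icos and Cd28, the receptors of the same family, were found together more often than independent detection gave, at 0.30, 0.26, 0.52 and 0.55. Of the 28 combinations 13 were above 0 in all 4 libraries and 5 were below 0 in all 4.

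**Figure D4:**
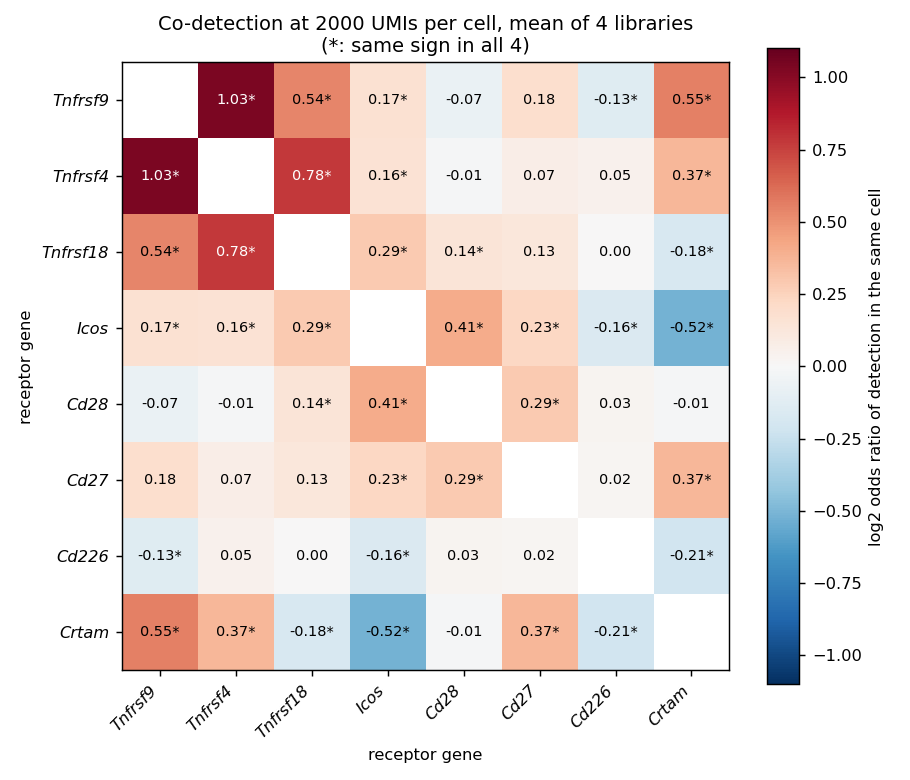
Mean over the 4 libraries of the log2 odds ratio of detection in the same cell (colour and printed value) for each combination of receptor genes (both axes), at 2000 UMIs per cell, with a star where all 4 libraries have the same sign. Tnfrsf9 with Tnfrsf4 is the highest at 1.03, followed by Tnfrsf4 with Tnfrsf18 at 0.78, and Icos with Crtam is the lowest at -0.52.

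These associations were weak in size. The largest Pearson correlation of log-normalised values in any library was 0.17 at 2000 UMIs and 0.22 at 4000 UMIs, and the share of thinned cells with 3 or more of the 8 receptors was 45.05%, 45.1% and 39.8% in anti-PD-1 libraries 1 to 3 and 38.2% in IgG, against 46.3%, 44.7%, 38.8% and 37.4% if the 8 genes were detected independently. Cells with none of the 8 made up 5.21% to 9.36% of a library, and no thinned cell held all 8.

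The guides allowed a comparison of each of 82 targeted metabolic genes with sgNT in the anti-PD-1 libraries, over 9419 genes, with library as a term. Of 656 combinations of receptor and target 3 were called at an adjusted p under 0.05 (0.457%), where 0.0611% of all combinations of gene and target were called, and 26 had an unadjusted p under that value. Over all genes 185 to 846 of 9419 per target had such an unadjusted p, so the 26 are not read as a result. Icos and Cd28 were higher in cells with the guide against Pik3cd, which encodes the catalytic delta subunit of phosphoinositide 3-kinase. The remaining call, Tnfrsf9 with Dhodh, a gene of pyrimidine synthesis, rested on a single library. Over all 9419 genes 46 were called for Pik3cd (0.488%, and 43 with edgeR's own function) and 43 for Dhodh (0.457%).

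Icos in Pik3cd cells gave 267, 174 and 203 CPM in anti-PD-1 libraries 1 to 3, where sgNT cells gave 144, 136 and 85.8 CPM, a log2 difference of 0.93 ± 0.20 (adjusted p = 0.00694). In the IgG library, which the test did not use, Icos stood at 178 CPM in 236 Pik3cd cells and at 79.3 CPM in sgNT cells. Cd28 gave 344, 254 and 206 CPM in Pik3cd cells and 239, 207 and 128 CPM in sgNT cells, a log2 difference of 0.55 ± 0.14 (adjusted p = 0.0335), and 180 against 136 CPM in IgG. The Pik3cd value was above the sgNT value of the same library in 4 of 4 libraries for both genes. The Pik3cd cells numbered 25, 28 and 210 in the anti-PD-1 libraries and came from 1 guide, so an effect of the guide and of the gene cannot be told apart. Without anti-PD-1 library 3 neither gene was called (Icos 0.66, Cd28 0.45), and without library 1 Cd28 was not (0.54).

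Tnfrsf9 in Dhodh cells was tested on 11 cells of anti-PD-1 library 3 alone, with 23 UMIs and 182 CPM against 608 CPM in sgNT cells, a log2 difference of -1.89 ± 0.38 (adjusted p = 0.00122), so the call has no replicate of its own. Anti-PD-1 libraries 1 and 2 held 3 Dhodh cells each, too few for the test, at 377 and 910 CPM against 539 and 553 CPM in sgNT cells, the first below and the second above. In the IgG library 39 Dhodh cells gave 455 CPM and sgNT cells 441 CPM. With all 4 libraries in the fit the difference was -0.64 and was not called. Of the 80 other targets 7 were tested in 1 library, as Dhodh was, and among these uncalled log2 differences reached -1.75 and 1.18 for Crtam (Pigc and Pigp), -1.35 for Tnfrsf4 (Pigm), -1.30 for Tnfrsf18 (Pigp), 0.85 for Cd226 (Pigp) and -0.67 for Cd27 (Pigc). Over the other 73 targets, with 2 or more libraries each, log2 differences ran from -0.58 to 0.59 for Tnfrsf4. They ran from -0.39 to 0.43 for Tnfrsf18 and from -0.30 to 0.33 for Cd27. For Cd226 they ran from -0.54 to 0.39 and for Crtam from -0.90 to 0.72, with none called for these genes. Tnfrsf4 with Pik3cd, left out of these ranges, stood at 0.65 and was not called.

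**Figure D5:**
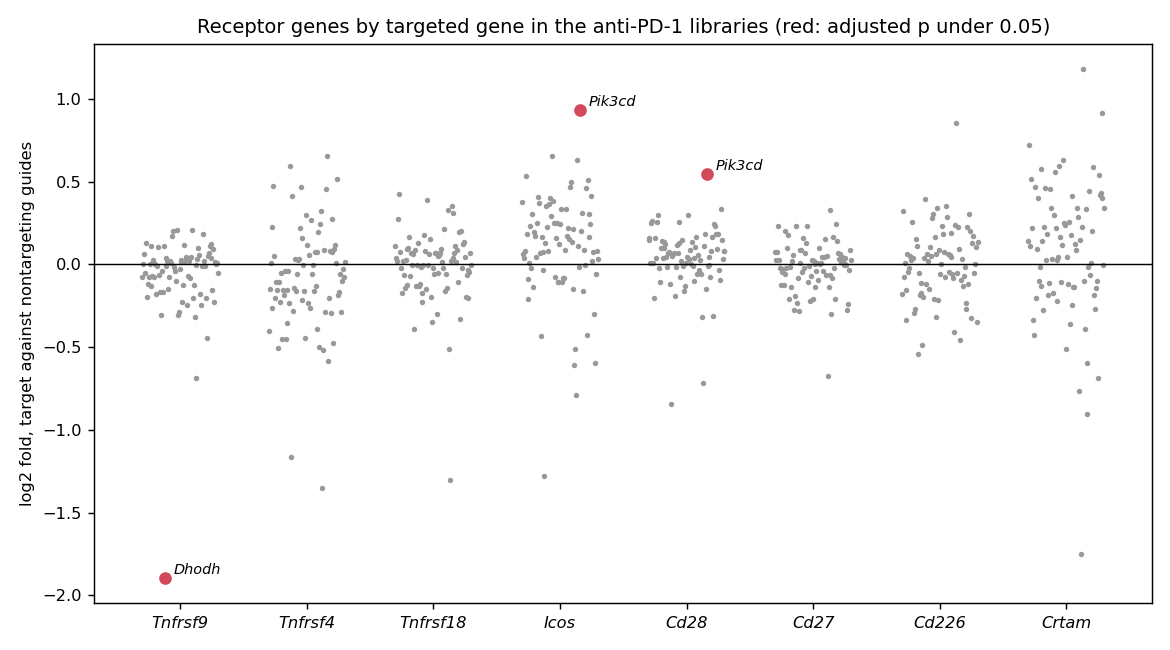
Log2 fold of each receptor gene (x axis) for each of 82 targeted genes against nontargeting cells of anti-PD-1 libraries (y axis), 1 point per target, with the 3 combinations of adjusted p under 0.05 in red. The called points are Icos at 0.93 and Cd28 at 0.55 for Pik3cd and Tnfrsf9 at -1.89 for Dhodh, the last on 11 cells, and uncalled points of targets tested in 1 library also lie far from 0, such as Icos with Dhodh at -1.28 and Crtam with Pigc at -1.75.

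Ligands, signalling partners and inhibitory counterparts of the receptors were read from a list of 46 genes. Treatment called 0 of the 45 tested by edgeR (1 with an unadjusted p under 0.05) and 0 by DESeq2. Across classes 40 were tested, and 58 of 400 combinations (14.5%) were called, 30 higher and 28 lower, against 9.44% of all combinations of gene and class (5% higher and 4.43% lower). In cells thinned to 2000 UMIs 37 were called (5.97% over all genes), and in nontargeting cells alone 37 (6.24%). For the TNF receptor ligands 10 of 30 combinations were called, 5 higher and 5 lower. Tnfsf9, the ligand of 4-1BB, was higher in the antigen response class by 2.04 ± 0.10 and in the cytokine class by 1.35 ± 0.11. It was lower in the exhausted class (-0.62 ± 0.15), in G1/S (-0.58 ± 0.12), in G2/M (-0.55 ± 0.12) and among cells of no class (-0.67 ± 0.11). Cd70 was lower in the exhausted class (-2.05 ± 0.41). Tnfsf4, the ligand of OX40, was higher in the precursor class by 1.58 ± 0.23, and Cd70, the ligand of CD27, in the cytokine class by 1.74 ± 0.21 and also in the precursor class.

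The antigen response class was higher in 10 of the 40 tested genes and lower in none, against 3.26% and 1.6% of all genes. Of these, 6 belonged to the list of 8 NF-kB genes: Rel (1.60 ± 0.05), Nfkb1 (0.66 ± 0.05), Nfkbia (0.62 ± 0.07), Map3k14 (0.60 ± 0.11), Relb (0.58 ± 0.06) and Nfkb2 (0.54 ± 0.07). Zc3h12a, which encodes an RNase that degrades costimulatory transcripts, was higher by 0.90 ± 0.09. The remaining genes were Slamf1, Btla and Tnfsf9. In the G1/S class 11 of 40 were lower and none was higher, against 6.97% and 9.29% of all genes.

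Of the 5 inhibitory counterparts on the list, 11 of 50 combinations of gene and class were called (22%), 7 higher and 4 lower, against 9.44% over all genes. Cd96 was called in no class. Ctla4, whose product takes the CD28 ligands, was higher in the granzyme (0.80 ± 0.09) and exhausted (0.58 ± 0.09) classes and lower in the precursor class (-0.69 ± 0.11). Tigit, whose product takes the DNAM-1 ligands, was higher in the exhausted class by 0.80 ± 0.09, where Cd226 differed by 0.24 ± 0.07 and was not called. Pvrig was higher in the granzyme and exhausted classes by 0.96 ± 0.16 and 0.86 ± 0.15. Btla was higher in the precursor (0.84 ± 0.13) and antigen response (0.79 ± 0.13) classes and lower in the granzyme class (-1.13 ± 0.18).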

How the data were processed

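Single-cell 3′ libraries with guide capture were made from sorted CD90.1+ OT-I T cells. The deposited UMI counts per gene and barcode, and the guide calls, are the output of Cell Ranger 3.1.0 on mm10, run by the authors, per the labels and the study's methods; the values are raw counts, 1 matrix per library. Here cells with 1 called guide were kept (23805 of 56359 barcodes) if log10 UMIs were no further than 3 median absolute deviations from their library's median and mitochondrial UMIs were at most 10%, which left 23059. No doublet caller was run; 4107 barcodes with more than 1 guide were left out.

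Total gene UMIs per library ran from 142945121 to 155974184. Counts were summed per library, per class and library (at least 20 cells) or per target and library (at least 10 cells), and tested with edgeR 4.0.16 (quasi-likelihood, TMM, filterByExpr, Benjamini-Hochberg over all genes of a contrast) in R 4.3.3, with DESeq2 1.42.0 as an alternative. The knockout comparison used custom R code, written for speed, for this model. Run beside edgeR's own function on the same 9419 genes, it called 46 genes for Pik3cd against 43 and 43 against 43 for Dhodh; p differed by up to 0.131 for a gene, and the 3 receptor calls held (adjusted p = 0.00816 for Icos, 0.0350 for Cd28 and 0.00121 for Tnfrsf9 with edgeR's function). The other targets were not run beside it. On simulated data with 2-fold changes, 86.5% of changed genes were recovered for treatment (13651 genes tested), 94.3% for the cytokine class (10450 genes) and 62.1% for Pik3cd (8998 genes). Each simulation gave all genes the same fixed dispersion and held no difference between library pairs. These shares therefore do not give the power of the tests on the real libraries. Classes came from the mean standardised log expression of each marker list, and Mx1 of the interferon list was not used. A gene of the memory list is not reported here. Replicates are separate libraries. The p-values for treatment and for library pairs measure the spread between libraries. In the class and knockout fits library was a term, so their p-values measure the spread left between sums of the same libraries. The named genes were all 8 receptors, called genes of the 46-gene list, the genes of most similar pattern, and targets whose knockout was called. Members and lists were chosen with earlier results of these data known. RefSeq windows matched Tnfrsf9, Tnfrsf4, Tnfrsf18 and Cd27.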

Additional observations from a re-analysis of the deposited data

How the results depend on the processing

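Of 80 combinations of receptor and class, 22 were called, and 19 to 23 under the 11 alternatives (20 to 23 when each library was left out). The calls by treatment were 0 receptors and 0 of the 45 partner genes under every alternative except without anti-PD-1 library 3, where they were 3 and 18 and 24.9% of all genes were called, so that leaving out each anti-PD-1 library gave 0 to 3 receptors and 0 to 18 partner genes. Partner genes called across classes numbered 58, against 37 in cells thinned to 2000 UMIs and 37 in nontargeting cells alone, where 5.97% and 6.24% of combinations over all genes were called against 9.44%, with 51 to 66 when each library was left out. Knockout calls numbered 3, with 0 to 3 when each anti-PD-1 library was left out. At the cells' own depth the IgG share was the lowest for 8 receptors, against 4 after thinning. The treatment difference of Cd28 turned to -0.10 with the library pair as a term. That of Crtam, -0.01, turned to 0.045 in thinned cells and ran from -0.14 to 0.081 when each anti-PD-1 library was left out. The cause of these changes was not tested. Combinations with 1 sign in all 4 libraries numbered 18 at 2000 UMIs, 14 at 4000 UMIs, 17 outside the G1/S and G2/M classes and 18 by Pearson's r. No paired analysis was possible because the labels pair no anti-PD-1 library with the IgG library, and the library numbers used here carry no pairing. The library pair term above groups libraries by guide composition instead. The DESeq2 fit of the knockout comparison was started and not completed, so it gives no value. The IgG group has 1 library and so no spread of its own, and the labels tie no library to mice.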

Other observations

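Partners of the receptors also differed between the library pairs, in the contrast of anti-PD-1 libraries 1 and 2 over anti-PD-1 library 3 and IgG that was added after the data were seen. Of 45 genes tested 23 were called by edgeR, 14 higher and 9 lower, where 29% of all genes were called. Ctla4 was higher in libraries 1 and 2 by 1.54 ± 0.10 on the log2 scale, Nfkbia by 1.46 ± 0.08 and Zc3h12a by 1.03 ± 0.08. Pvrig stood at -1.12, Tnfsf9 at -0.86 and Cd96 at -0.81. Guide composition moved with the same division of the libraries, and its part in these differences was not tested.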
